A study of Saccharomyces cerevisiae with 8 samples.

Results

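Codon occupancies of ribosomes in yeast cells depleted of eEF3 were compared between 2 kinds of ribosome-protected footprint (RPF), 21 nt RPFs from lysates with cycloheximide and tigecycline (CHX + TIG) and 28 nt RPFs from lysates with cycloheximide and anisomycin (CHX + ANS). The comparison used 4 of the 8 libraries of the series, chosen by strain and inhibitor, with 2 libraries per footprint class, and the other 4 libraries, from WT cells (BY4741), served only for 1 comparison at the end. All 4 eEF3d libraries were newly made. In eEF3d cells (strain yCW35), YEF3, the gene of eEF3, stands under the GAL1 promoter and carries a mAID auxin degron, HEF3, the gene of its paralog, is replaced by KanMX, and osTIR1, the plant receptor that acts on the degron, is expressed from the ADH1 promoter. Both strains were moved from galactose and raffinose to glucose, which shuts off GAL1, for 8 h, and auxin was added to deplete eEF3. The inhibitors were in the lysis buffer and not in the culture. The table holds 1 value per sense codon and library and no value per gene, so the loss of YEF3 was not checked here, and the number of reads behind each value is unknown. Footprint length and inhibitor change together, so their parts in a difference cannot be told apart.

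eEF3 is a fungal ATPase that acts in elongation together with eEF1A, which brings aminoacyl-tRNA to the A site, and eEF2, which drives translocation. A ribosome whose A site has not yet taken up a tRNA leaves a short footprint, because the unfilled small subunit lets the nuclease cut further in, and a ribosome with both tRNAs in place leaves a long one. TIG holds back accommodation of aminoacyl-tRNA and ANS blocks peptidyl transfer, while CHX blocks translocation. The 21 nt RPFs with CHX + TIG therefore report on ribosomes waiting for a tRNA (pre-accommodation, PreAcc), and the 28 nt RPFs with CHX + ANS on ribosomes that have made a peptide bond and not moved on (pre-translocation, PreTrans). The value analyzed is the pause score, here called codon occupancy, which is the density of footprints with a given codon in the A site over the density across the coding sequence, so that a value of 1 is the density of the coding sequence. The mean over the 61 codons was 1.10 and 1.19 in the 21 nt libraries, against 1.02 and 1.01 in the 28 nt libraries. The median log2 value was 0.029 and -0.0035 in the 21 nt libraries, against 0.022 and -0.027 in the 28 nt libraries. The classes thus differed in their means and little in their medians. How far a codon differs between the classes therefore depends on the scaling chosen, and results with other scalings are given below. The question was which codons and amino acids were over- or under-represented in each of these states when eEF3 is depleted.

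The codons that differed between the footprint classes were mainly codons of leucine, serine and arginine, and the tRNAs with anticodons complementary to them are shown here so that the codons can be set against the genes that serve them. The anticodon arm of 1 gene for each leucine and serine anticodon, and of the arginine tRNA for CGG, is given 5′ to 3′ as DNA from the RefSeq R64 annotation, with the intron removed where there is one and the anticodon in capitals. An anticodon pairs with its codon in reverse order, so that CAA pairs with TTG.
tRNA-Leu(CAA), for TTG: cctgattCAAgctcagg
tRNA-Leu(UAA), for TTA: gcagactTAAgatctgt
tRNA-Leu(GAG), for CTC: tcaggtcGAGgtcctga
tRNA-Leu(UAG), for CTA: tcagattTAGgctctga
tRNA-Ser(AGA), for TCT: aaagattAGAaatcttt
tRNA-Ser(CGA), for TCG: agagactCGAaatctct
tRNA-Ser(UGA), for TCA: acagactTGAaatctgt
tRNA-Ser(GCU), for AGC: atgccctGCTaaggcat
tRNA-Arg(CCG), for CGG: cattcttCCGgtggctg

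The annotation holds 10 genes for tRNA-Leu(CAA), 7 for tRNA-Leu(UAA), 3 for tRNA-Leu(UAG) and 1 for tRNA-Leu(GAG), which lies on chromosome VII from 700675 to 700756 on the forward strand. It holds 11 genes for tRNA-Ser(AGA), 3 each for tRNA-Ser(UGA) and tRNA-Ser(GCU), and 1 for tRNA-Ser(CGA), on chromosome III from 227942 to 228042 on the forward strand. The tRNA-Arg(CCG) gene is also single and lies on chromosome XII from 818609 to 818680 on the forward strand. No annotated gene has an anticodon exactly complementary to CTG, CTT, TCC or AGT, or to CGA, so these codons are read by wobble. Of the 61 codons, 20 have no complementary gene by this count and 41 have at least 1.

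Across the 61 codons, replicates of 1 class resembled each other more than they resembled the other class. Pearson's correlation of log2 occupancy over codons was 0.88 between the 21 nt libraries and 0.92 between the 28 nt libraries, and it lay between 0.22 and 0.39 for the 4 pairs made of 1 library of each class. Spearman's rho was 0.74 between the 21 nt libraries, 0.92 between the 28 nt libraries, and between 0.17 and 0.32 across the classes. These correlations are across codons of a library, which are not independent replicates, and carry no test. Pooled over codons, the SD of log2 occupancy between replicates of a class was 0.209 in 21 nt RPFs and 0.0852 in 28 nt RPFs. The 21 nt class was thus the less precise of the pair. The study reports that short footprints in CHX + TIG libraries were drastically reduced in eEF3d cells compared with WT cells. The 21 nt profile therefore describes a depleted footprint class. The part of this loss in the larger SD was not tested, since the ratios hold no read numbers. The study calls the replicates biological, and the sample labels name no separate cultures, so the p-values measure the spread between these libraries.

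**Figure D1:**
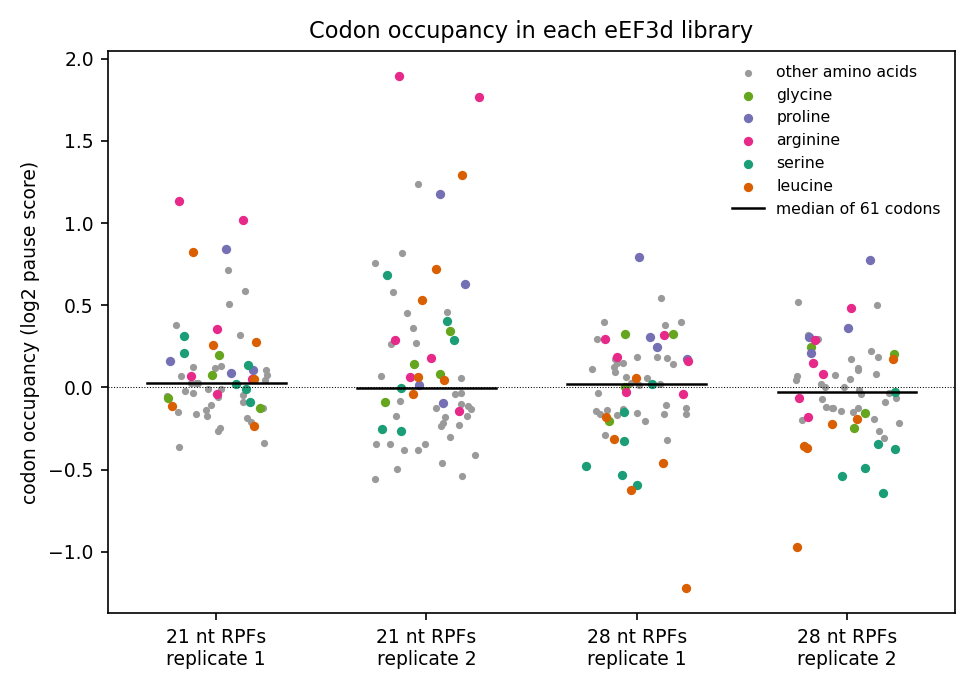
Codon occupancy (log2 pause score, y axis) in each of the 4 eEF3d libraries (x axis), with 1 point per codon, the median of the 61 codons as a bar, and 5 amino acids in color. Arginine, leucine and proline codons lead the 21 nt libraries, up to a pause score of 3.71 in replicate 2, and leucine and serine codons lie at the low end of both 28 nt libraries.

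The codons at the top of the profile differed in part between the states. By mean occupancy, the order in 21 nt RPFs was CGA (Arg), CGG (Arg), CTG (Leu), CCG (Pro) and TGG (Trp). In 28 nt RPFs, it was CCG (Pro), ATA (Ile), AAA (Lys), CGA (Arg) and GCA (Ala). CCG and CGA were among the 5 highest in both, and 4 codons, these and ATA and TGG, were among the 10 highest in both. CCG occupancy was 1.79 and 2.26 in 21 nt RPFs, against 1.74 and 1.71 in 28 nt RPFs. ATA occupancy was 1.501 and 1.76 in 21 nt RPFs, against 1.46 and 1.43 in 28 nt RPFs. At both codons each 21 nt library lay above both 28 nt libraries, as at 24 of all 61 codons (39.3%). The log2 differences of 0.23 and 0.17 did not pass the test (limma adjusted p-values 0.32 and 0.34).

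The bottom of the profile had no codon in common among the 5 lowest. In 21 nt RPFs, the lowest were GTT (Val), ATT and ATC (Ile), ACT (Thr) and CAT (His), with mean occupancies between 0.755 and 0.831. In 28 nt RPFs, the lowest were CTC (Leu), TCG, TCC and TCT (Ser) and TTG (Leu), with mean occupancies between 0.471 and 0.715. Among the 10 lowest of each class only AAT (Asn) was shared. The low end of the 28 nt profile was thus made of leucine and serine codons, and that of the 21 nt profile of codons for other amino acids.

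On the log2 scale, 15 of 61 codons (24.6%) differed between the classes at a limma adjusted p below 0.05, with 11 (18.0%) higher and 4 (6.56%) lower in 21 nt RPFs. Both 21 nt libraries lay above both 28 nt libraries at 24 codons (39.3%) and below both at 18 (29.5%). All 11 higher codons encode leucine, serine or arginine. With each library divided by its mean, 17 codons passed, 9 higher and 8 lower, and the median difference over all codons was -0.15, against 0.03 with the values as deposited. The calls rest on the variances that limma shares among codons, since without this moderation none passed (13 had an unadjusted p below 0.05). When a library was left out, its class had 1 sample and the other class set the spread. No codon passed in limma without replicate 1 or without replicate 2 of the 28 nt class (8 had an unadjusted p below 0.05 in each case), although the CTG difference, for example, was then 1.25 and 1.24, and 42 and 25 passed without 21 nt replicate 1 and replicate 2.

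**Figure D2:**
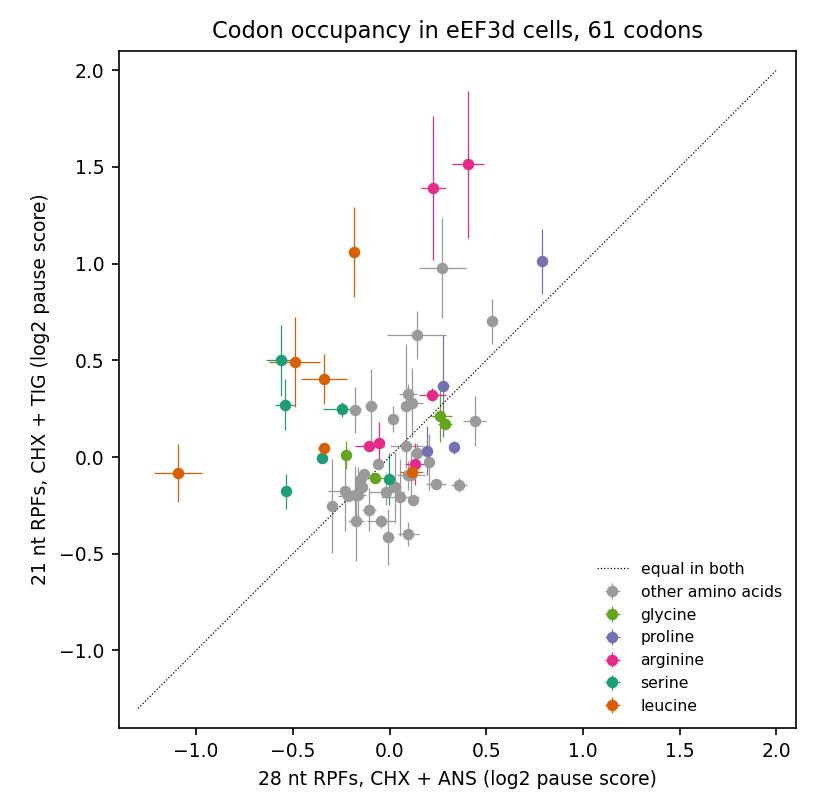
Mean log2 codon occupancy in 21 nt RPFs (y axis) against 28 nt RPFs (x axis) of eEF3d cells for 61 codons, with bars running from the lower to the higher of the 2 libraries of a class and a dotted line where both classes are equal. CTG stands at 2.11 in 21 nt RPFs and 0.880 in 28 nt RPFs on the linear scale, and most leucine and serine codons lie above the line.

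Leucine, whose 6 codons are read by 4 tRNA species, gave the largest difference among the amino acids with several codons. CTG occupancy was 1.77 and 2.45 in 21 nt RPFs, against 0.885 and 0.875 in 28 nt RPFs, a log2 difference of 1.24 (2.37-fold, standard error 0.18, limma adjusted p = 0.028). CTC, the codon served by the single tRNA-Leu(GAG) gene, had 0.851 and 1.05 in 21 nt RPFs, against 0.430 and 0.511 in 28 nt RPFs. At CTG the classes were far apart and both 28 nt libraries were below 1, while CTC was near 1 in 21 nt RPFs and the lowest of all codons in 28 nt RPFs. TTG had 1.19 and 1.65 in 21 nt RPFs, against 0.650 and 0.780 in 28 nt RPFs. TTA had 1.21 and 1.45 in 21 nt RPFs, against 0.728 and 0.859 in 28 nt RPFs. CTC, TTG and TTA rose by log2 values of 1.01, 0.98 and 0.74, with adjusted p-values of 0.028, 0.040 and 0.040. CTT occupancy was 1.04 and 1.03 in 21 nt RPFs, against 0.805 and 0.774 in 28 nt RPFs, and the log2 difference was 0.39 (adjusted p = 0.046). This CTT difference was 0.21 (adjusted p = 0.29) after division by the library means. CTA was the exception, with 0.923 and 0.974 in 21 nt RPFs, against 1.04 and 1.13 in 28 nt RPFs, a log2 difference of -0.19 that did not pass the test (adjusted p = 0.24).

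Leucine codons were thus called higher at 5 of 6, beside 11 of all 61 codons (18.0%). Over the 6 codons the mean log2 occupancy differed by 0.70 (standard error 0.12, limma adjusted p = 0.013 over 20 amino acids). In rank, leucine was 4 of 20 in 21 nt RPFs and 20 of 20 in 28 nt RPFs. The order within the amino acid differed as well, since CTG was the highest leucine codon in both 21 nt libraries and CTA in both 28 nt libraries, where CTC was the lowest. The adjusted p of leucine was 0.17 without moderation of the variances, 0.11 without 28 nt replicate 1 and 0.061 without 28 nt replicate 2.

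Serine is encoded by the TCN box and by AGC and AGT, which belong to a different tRNA. TCG, the codon of the single tRNA-Ser(CGA) gene, had 1.24 and 1.60 in 21 nt RPFs, against 0.718 and 0.642 in 28 nt RPFs, a log2 difference of 1.06 (2.08-fold, standard error 0.16, limma adjusted p = 0.028). TCC, which has no complementary tRNA gene, had 1.10 and 1.32 in 21 nt RPFs, against 0.663 and 0.712 in 28 nt RPFs, a log2 difference of 0.81 (standard error 0.13, adjusted p = 0.028). TCA had 0.992 and 0.998 in 21 nt RPFs, against 0.797 and 0.773 in 28 nt RPFs. AGT had 1.15 and 1.22 in 21 nt RPFs, against 0.902 and 0.788 in 28 nt RPFs. TCA and AGT were higher by log2 values of 0.34 and 0.49, with adjusted p-values of 0.048 and 0.046. At these 4 serine codons both 21 nt libraries lay above both 28 nt libraries, as at 24 of all 61 codons (39.3%). TCT, the serine codon with the most complementary tRNA genes, had 0.941 and 0.831 in 21 nt RPFs, against 0.690 and 0.689 in 28 nt RPFs, and its log2 difference of 0.36 had an adjusted p of 0.071. AGC had 1.01 and 0.841 in 21 nt RPFs, against 1.02 and 0.982 in 28 nt RPFs, and the classes overlapped. After division by the library means, TCC and TCG still passed, and TCA (0.16) and AGT (0.31) did not, with adjusted p-values of 0.40 and 0.11. In all, 4 of 6 serine codons were called higher with the values as deposited, beside 11 of all 61 codons (18.0%). The mean over the 6 differed by 0.49 (standard error 0.08, limma adjusted p = 0.013). This adjusted p was 0.084 without moderation, 0.21 without 28 nt replicate 1 and 0.36 without 28 nt replicate 2.

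Leucine and serine were the 2 of 20 amino acids (10.0%) that passed the test. Tryptophan, which has the single codon TGG, had 1.64 and 2.36 in 21 nt RPFs, against 1.32 and 1.11 in 28 nt RPFs, and its log2 difference of 0.70 had an adjusted p of 0.057. The difference was 0.96 without 21 nt replicate 1 and 0.44 without 21 nt replicate 2. The arginine mean differed by 0.42, also with an adjusted p of 0.057, and by 0.19 (adjusted p = 0.19) when codons were weighted by their frequency. The most negative mean was that of phenylalanine, at -0.25 (adjusted p = 0.10). With each library divided by its mean, phenylalanine (-0.43), isoleucine (-0.38) and valine (-0.34) were called lower, with adjusted p-values of 0.032, 0.037 and 0.043.

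**Figure D3:**
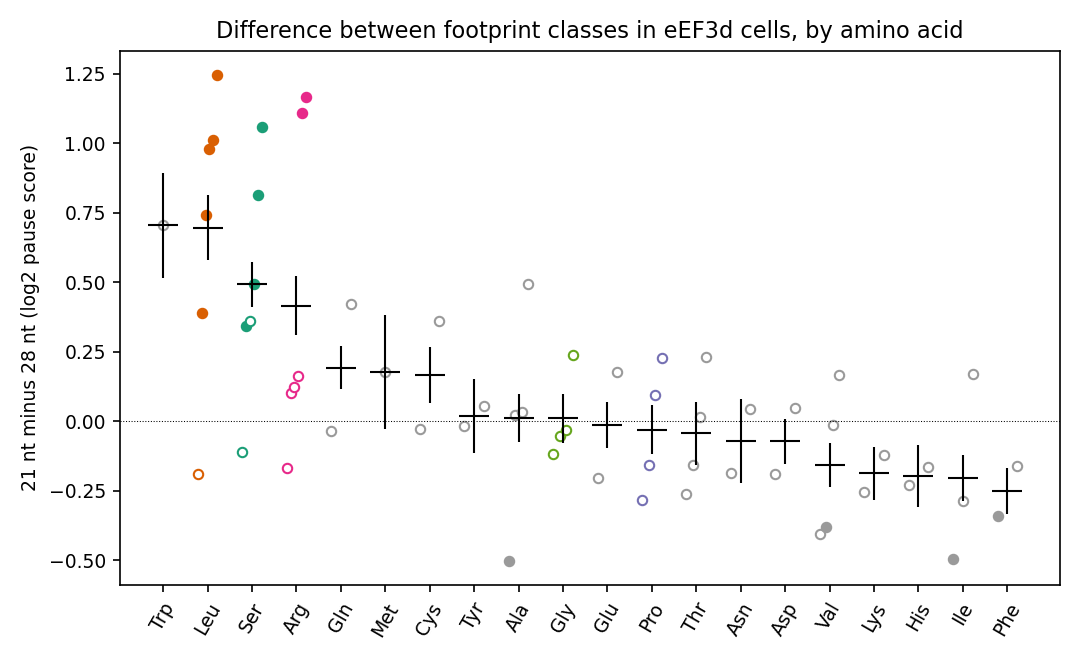
Difference of log2 codon occupancy between 21 nt and 28 nt RPFs of eEF3d cells (y axis) for the 20 amino acids (x axis), with 1 circle per codon, filled where the limma adjusted p is below 0.05, and the amino acid mean as a black bar with its standard error. Filled circles above 0 belong to leucine, serine and arginine, and the leucine mean stands at 0.70.

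The 6 arginine codons fell into unlike groups. CGA, which in yeast is read through an inosine-adenine wobble pair by tRNA-Arg(ACG) and is known as a slow codon, had 2.19 and 3.71 in 21 nt RPFs, against 1.25 and 1.40 in 28 nt RPFs. CGG, the codon of the single tRNA-Arg(CCG) gene, had 2.03 and 3.40 in 21 nt RPFs, against 1.12 and 1.22 in 28 nt RPFs. These 2 codons were higher by log2 values of 1.11 and 1.17 (standard errors 0.27 and 0.26, limma adjusted p-values 0.048 and 0.046). The lower 21 nt library exceeded the higher 28 nt library at both, as at 24 of all 61 codons (39.3%). Without 21 nt replicate 2, the log2 differences were 0.73 and 0.80, and without 21 nt replicate 1 they were 1.49 and 1.54. The limma adjusted p-values of CGA and CGG were 0.058 and 0.053 with libraries centered on their median. They were 0.059 and 0.048 after division by the frequency-weighted mean, and 0.00027 and 0.00016 after division by the mean. At the other 4 arginine codons, CGT, CGC, AGA and AGG, the log2 differences lay between -0.17 and 0.16 and none passed the test. AGA, the arginine codon with the most tRNA genes, had 1.05 and 0.905 in 21 nt RPFs, against 1.14 and 1.06 in 28 nt RPFs. CGA and CGG are rare, with 3.13 and 1.85 of every 1000 codons in the 6002 nuclear coding sequences. CGC, at 2.66 of every 1000, is as rare, and its occupancy was 1.04 and 1.04 in 21 nt RPFs, against 0.982 and 0.882 in 28 nt RPFs.

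The 4 codons that were lower in 21 nt RPFs encode alanine, isoleucine, valine and phenylalanine. GCA (Ala) had 0.928 and 0.882 in 21 nt RPFs, against 1.32 and 1.25 in 28 nt RPFs, a log2 difference of -0.50 (standard error 0.09, limma adjusted p = 0.040). ATT (Ile) had 0.792 and 0.727 in 21 nt RPFs, against 1.11 and 1.03 in 28 nt RPFs, a log2 difference of -0.50 (standard error 0.10, adjusted p = 0.040). Both codons were below 1 in 21 nt RPFs and above it in 28 nt RPFs. GTA (Val) had 0.901 and 0.913 in 21 nt RPFs, against 1.14 and 1.22 in 28 nt RPFs. TTT (Phe) had 0.863 and 0.851 in 21 nt RPFs, against 1.09 and 1.08 in 28 nt RPFs. GTA and TTT were lower by -0.38 and -0.34 on the log2 scale (adjusted p = 0.048 for both).

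With the values as deposited, no proline, glycine or aspartate codon passed the test in either direction. Proline is a poor substrate for peptide bond formation, and eIF5A assists ribosomes at proline-rich stretches. CCG was the highest of the 4 proline codons in each library. CCA had 1.06 and 1.01 in 21 nt RPFs, against 1.24 and 1.28 in 28 nt RPFs, and its log2 difference of -0.28 had an adjusted p of 0.081. CCA passed as lower (-0.46, adjusted p = 0.021) when the libraries were divided by their means. As deposited, the proline differences ran from -0.28 at CCA to 0.23 at CCG, and the proline mean ranked 3 of 20 in 21 nt RPFs and 1 of 20 in 28 nt RPFs. Among glycine codons, GGT had 0.958 and 1.06 in 21 nt RPFs, against 0.869 and 0.842 in 28 nt RPFs (log2 difference 0.24, adjusted p = 0.17). GGA had 1.15 and 1.11 in 21 nt RPFs, against 1.25 and 1.19 in 28 nt RPFs, and the glycine differences were between -0.12 and 0.24. They ran from -0.30 at GGA to 0.06 at GGT once libraries were divided by their means. GAC and GAT (Asp) differed by -0.19 and 0.05, with adjusted p-values of 0.25 and 0.76. A p above the threshold with 2 libraries a class does not show that these codons were alike in both states.

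Codons were also grouped by their last base, which pairs with the first base of the anticodon. Of 15 codons ending in G, 13 had a positive difference and 4 were called higher, with a median of 0.23. Over all 61 codons, 33 had a positive difference and 11 (18.0%) were called higher, with a median of 0.03. With each library divided by its mean, 9 of the 15 and 19 of all 61 were positive. Of 14 codons ending in A, 4 had a positive difference, 3 were called higher and 2 lower, with a median of -0.18. Codons ending in C and in T had medians of -0.02 and 0.04. The ratio of the G-ending to the A-ending codon of the same box does not depend on how a library is scaled. Over the 13 boxes that encode the same amino acid with A and G, its median was 1.19 and 1.51 in the 21 nt libraries, against 0.928 and 0.909 in the 28 nt libraries. The ratio was above 1 in both 21 nt libraries for 9 boxes and in both 28 nt libraries for 2, and in 11 boxes both 21 nt libraries exceeded both 28 nt libraries. For CTG over CTA, it was 1.92 and 2.52 in 21 nt RPFs, against 0.851 and 0.776 in 28 nt RPFs. For GCG over GCA (Ala), it was 1.53 and 1.92 in 21 nt RPFs, against 0.928 and 0.796 in 28 nt RPFs. The box of CGG over CGA differed little, with ratios of 0.926 and 0.915 in 21 nt RPFs, against 0.895 and 0.873 in 28 nt RPFs. The boxes where the classes overlapped were AAG over AAA (Lys), with 0.845 and 0.941 in 21 nt RPFs, against 0.870 and 0.763 in 28 nt RPFs, and GGG over GGA (Gly), with 0.920 and 1.15 in 21 nt RPFs, against 0.998 and 0.969 in 28 nt RPFs.

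Grouped by their tRNA genes, 5 of the 20 codons without a complementary gene were called higher (CTG and CTT of leucine, TCC and AGT of serine, and CGA of arginine) and 1 lower (TTT), and 15 of the 20 had a positive difference, with a median of 0.13. Of the 41 codons with a complementary gene, 6 were called higher and 3 lower, and 18 had a positive difference, with a median of -0.04. With each library divided by its mean, 9 of the 20 and 10 of the 41 were positive. Among the 20 rarest codons, 5 were called higher and none lower, and among the 20 commonest, 2 were called in each direction, beside 11 of 61 (18.0%) higher and 4 of 61 (6.56%) lower over all codons. Spearman's rho of occupancy with codon frequency over the 61 codons was -0.34 and -0.50 in the 21 nt libraries, against -0.24 and -0.16 in the 28 nt libraries. This is a description over codons of the same libraries. Gene number stands here for tRNA supply, which was not measured.

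The libraries of the 2 states also lay apart in how occupancy was shared among synonymous codons. Amino acid identity took up 2.91% and 11.7% of the variance of log2 occupancy over codons (adjusted for the number of amino acids) in the 21 nt libraries, against 37.9% and 35.4% in the 28 nt libraries. The difference in this share was -29.3 percentage points, and the libraries did not overlap. An exact two-sided permutation test over 2 against 2 libraries cannot go below 0.333, which is the value it gave. In 28 nt RPFs codons of 1 amino acid thus sat closer together relative to codons of other amino acids than in 21 nt RPFs. Noise within a library lowers this share, and the replicate SD was larger in 21 nt RPFs (0.209 against 0.0852). The part of noise in the difference was not tested. For arginine, the highest codon exceeded the lowest 2.25-fold and 4.10-fold in the 21 nt libraries, against 1.28-fold and 1.59-fold in the 28 nt libraries. For leucine, it did so 2.08-fold and 2.52-fold in the 21 nt libraries, against 2.42-fold and 2.20-fold in the 28 nt libraries.

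The spread of the profile depended on the measure. The SD of log2 occupancy over codons was 0.310 and 0.532 in the 21 nt libraries, against 0.317 and 0.295 in the 28 nt libraries, and the ratio of the class means was 1.37 (exact permutation p = 0.667, where the smallest possible is 0.333). On the linear scale, the variance of the pause scores was 0.0790 and 0.343 in the 21 nt libraries, against 0.0450 and 0.0422 in the 28 nt libraries, and the libraries did not overlap. For the SD of log2 occupancy, in contrast, the 28 nt values lay between the 2 values of 21 nt RPFs or just outside them. Without 21 nt replicate 2 the ratio of these SDs was 1.01. In both 21 nt libraries the highest codon was CGA and the profile reached further above 1 than below it, with 9 and 17 codons above 1.25 and 2 and 10 below 0.8. In the 28 nt libraries, 7 and 5 codons were above 1.25 and 7 and 8 below 0.8.

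The same 21 nt minus 28 nt difference was set against that in WT cells, in 1 limma model over all 8 libraries whose interaction term is the eEF3d difference minus the WT difference. It passed for 31 of 61 codons (50.8%), 19 with a positive and 12 with a negative term. Of the 4 WT libraries, 3 come from an earlier study, so strain and library origin cannot be fully told apart here. The largest positive terms were at glycine codons. GGC had 0.915 and 0.942 in 21 nt RPFs and 1.003 and 0.897 in 28 nt RPFs of eEF3d cells, against 0.735 and 0.795 in 21 nt RPFs and 2.39 and 2.12 in 28 nt RPFs of WT cells. The GGC difference between classes was thus -0.03 in eEF3d and -1.56 in WT cells, an interaction of 1.53 (adjusted p = 1.2e-05). CCG had the most negative term, with a difference of 0.23 in eEF3d and 1.41 in WT cells and an interaction of -1.18 (adjusted p = 0.0013). Of the 8 codons with the largest rises in 21 nt over 28 nt RPFs of eEF3d cells, CTG, CGG and TCC had an interaction past the threshold. CTG differed by 1.24 in eEF3d and 2.05 in WT cells, and CGG by 1.17 in eEF3d and 1.995 in WT cells. The CGG term of -0.83 was -0.46 (adjusted p = 0.16) without eEF3d replicate 1 of CHX + TIG and -0.56 (adjusted p = 0.27) without WT replicate 1 of CHX + TIG. TCC went the other way, with 0.81 in eEF3d and 0.19 in WT cells (interaction 0.62, adjusted p = 0.016). The count of codons was 20 without WT replicate 1 of CHX + TIG, 20 without WT replicate 2 of CHX + ANS, and 13 without moderation of the variances.

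**Figure D4:**
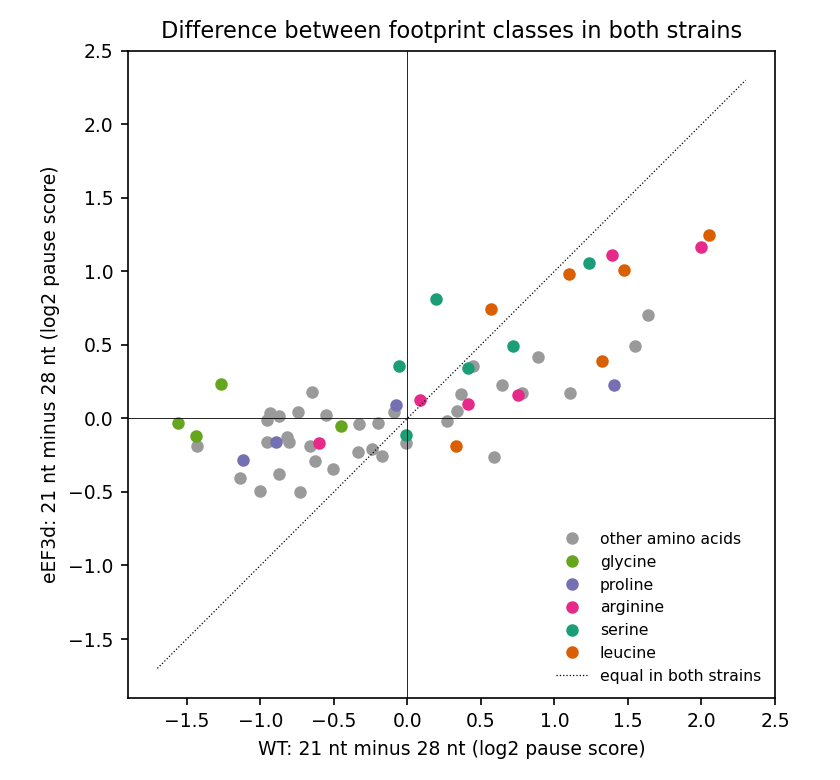
Difference of log2 codon occupancy between 21 nt and 28 nt RPFs in eEF3d cells (y axis) against that in WT cells (x axis), with 1 point per codon from the means of 2 libraries per class and strain, and a dotted line where the strains are equal. Glycine codons lie between -0.12 and 0.24 in eEF3d cells, and GGC lies at -1.56 in WT cells.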

How the data were processed

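The authors trimmed adapters, discarded reads matching ribosomal or other non-coding RNA, aligned the remainder to R64 (sacCer3) with STAR at single positions (CASAVA 1.8 is also named in the submitters' processing notes), kept 1 footprint length per library and assigned reads to the A site. They deposited, per sense codon and library, a ratio (pause score) that sets the footprint density at the codon (window of 3 nt) against that of the whole coding sequence, 15 nt at either end left out. The ratio keeps no depth, so precision rests on 2 libraries a class and no interval or floor is given. No value was 0.

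Differences per codon and per amino acid (mean log2 ratio of synonymous codons) were tested with limma 3.58.1 (R 4.3.3) on log2 values without pseudocount, with Benjamini-Hochberg adjustment over 61 codons or 20 amino acids and a threshold of 0.05. The limma prior had 2.58 degrees of freedom for codons. The share of variance and the spread were compared by exact two-sided permutation with scipy 1.17.1. On simulated tables with a log2 change of 1, limma recovered 99.5% of changed codons, 99.3% of changed amino acids and 97.6% of changed codon interactions. The mean share of false calls was 3.14%, 4.62% and 3.31%. These tables gave every codon of a class the same noise SD, unlike the data, and many called differences were below 1. The recovery is thus not the power of the tests on these data. Codon frequencies and tRNA genes were counted in the R64 RefSeq annotation (6002 nuclear coding sequences, and 275 nuclear tRNA genes, 274 of them with an anticodon found).

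Named codons are the 5 highest and 5 lowest per class, the 8 largest called differences in each direction, and all codons of proline, glycine, aspartate and arginine, with the amino acids called. Codons outside this rule (the remaining codons of leucine and serine, and AAT, GCG, CAG and ATG) were named after their values were seen. The codons, lists and tests were chosen with earlier results of these data known. Alternatives were other scalings, a pseudocount of 0.1, variance models, a replicate block, a filter on low codons and leaving out each library. Those for the interaction were added after the data were seen.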

Additional observations from a re-analysis of the deposited data

Results flagged for a closer look

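The difference between 21 nt and 28 nt RPFs was itself different between eEF3d and WT cells, by the limma interaction term (eEF3d minus WT, adjusted p below 0.05), at 16 of the 34 codons named by rule and at CTT, beside 31 of 61 codons (50.8%) in all. The term was positive for the glycine codons GGA (1.32), GGC (1.53) and GGT (1.505), for the proline codons CCA (0.84) and CCT (0.73), for ACT (0.80), ATT (0.50), GTA (0.50) and GTT (0.73), and for TCC (0.62). Except at TCC, the WT difference at these codons was negative and was smaller in size in eEF3d cells. At GGA, for example, it was -1.44 in WT and -0.12 in eEF3d cells.

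The term was negative for CCG (-1.18), ATA (-0.94), CTT (-0.93), TGG (-0.93), CGG (-0.83), CTG (-0.81) and CGC (-0.59). At each of these codons the difference was positive in WT cells and smaller in eEF3d cells, as at CCG with 1.41 and 0.23. Apart from TCC, the listed terms thus mark class differences that were smaller in eEF3d than in WT cells. The CGC term was -0.38 (adjusted p = 0.26) without WT replicate 2 of CHX + ANS and -0.40 (adjusted p = 0.23) without WT replicate 1 of CHX + TIG. In the WT libraries, 3 of 4 are from an earlier study, and the part of library origin in these terms was not tested.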

How the results depend on the processing

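The count of 15 codons was 0 without moderation of the variances and lay between 0 and 42 when 1 library was left out, and that of 2 amino acids was 4 with libraries centered on their median, 6 divided by their mean, 0 without moderation, 4 with weights per class, and 0 to 10 when 1 library was left out. Without a library, its class has 1 sample, assumed to vary like the other class. Other scalings, a mean-variance trend, a pseudocount of 0.1 and the filter on low codons kept the codon count between 10 and 17, the fit over all 8 libraries gave 18, and 10 of the 15 calls were shared with median centering. Same-numbered libraries of both classes correlated at 0.16 in their deviations. With only 2 pairs, this cannot tell whether they share a culture or batch, and with the replicate block 10 codons and 3 amino acids passed. The interaction count of 31 was 13 without moderation, 31 with the replicate block and 20 to 36 when 1 library was left out. The spread ratio was 1.01 to 1.74 and the difference in the share of variance -33.7 to -25.0 percentage points over left-out libraries.

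No called codon changed direction under these alternatives. Over all codons, 33 differences were positive as deposited, 19 with libraries divided by their mean and 27 by their frequency-weighted mean. Among the uncalled codons named by rule, those that turned were, with the mean, AGG (-0.078), ATA (-0.0081), CCC (-0.087), CGC (-0.017), CGT (-0.055) and GAT (-0.13), and with the frequency-weighted mean GAT (-0.023). With 1 library left out, ACT ran between -0.37 and 0.048, CCC between -0.17 and 0.36, GGC between -0.11 and 0.050, and GGG between -0.19 and 0.082. Depth is unknown from these ratios, so the replicate SD, larger in 21 nt RPFs, sets what can be told apart.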

Other observations

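Some codons of other amino acids lay apart between the classes without passing the test, and are given as values. GTT (Val) was the lowest codon of 21 nt RPFs, with 0.831 and 0.680, against 1.01 and 0.977 in 28 nt RPFs (log2 difference -0.41, limma adjusted p = 0.081). CAG (Gln) had 1.09 and 1.29 in 21 nt RPFs, against 0.895 and 0.873 in 28 nt RPFs (log2 difference 0.42, adjusted p = 0.067). GCG (Ala) had 1.42 and 1.69 in 21 nt RPFs, against 1.22 and 0.991 in 28 nt RPFs (log2 difference 0.49, adjusted p = 0.081). Lysine codons were among those with higher 28 nt values, and AAA had 1.25 and 1.04 in 21 nt RPFs, against 1.30 and 1.41 in 28 nt RPFs (log2 difference -0.25, adjusted p = 0.24). ATG (Met) showed how far the 21 nt replicates can part, with 0.962 and 1.497 in 21 nt RPFs, against 1.07 and 1.06 in 28 nt RPFs.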
